A study of Homo sapiens with 4 samples.

Results

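Genes of the TGF-β, BMP and SMAD pathway were followed through a list of HuR RIP-seq peaks from MDA-MB-231, an established line of human breast cancer cells of the triple-negative kind. A peak was a member when the RefSeq transcript in its annotation belonged to a gene whose symbol starts with TGFB, BMP and a digit, BMPR, ACVR, SMAD and a digit, SMURF or LTBP, or is SKI or SKIL. Of 14149 peaks in the list, 82 were members, and they lay in 20 of 3313 host genes. These 20 were 17 protein-coding genes and 3 non-coding genes, TGFB2-AS1, TGFB2-OT1 and SMURF2P1-LRRC37BP1. In RNA immunoprecipitation followed by sequencing (RIP-seq), RNA is pulled down from a cell lysate with an antibody and sequenced, so that transcripts held by the protein can be found. The 2 HuR samples were taken with a mouse antibody against HuR and the 2 control samples with mouse IgG. All 4 came from the same cell line, which was grown in medium with serum and antibiotics, and no other treatment is given for them. The list was 1 table for the whole series, without values for single samples or for IgG, so neither a difference between HuR and IgG nor the spread between the 2 replicates could be given for any gene.

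TGF-β and BMP ligands are secreted as dimers, and TGF-β is held in the matrix in a latent complex with LTBP proteins. A ligand brings together type II and type I receptor kinases, the type I receptor phosphorylates a receptor-regulated SMAD, and this SMAD enters the nucleus with SMAD4 to change transcription. Inhibitory SMADs, SMURF ubiquitin ligases and the corepressors SKI and SKIL hold the signal back. In breast cancer the pathway is known both for arresting growth of epithelial cells and for driving epithelial-to-mesenchymal transition. HuR, encoded by ELAVL1, is a member of the Hu family of RNA-binding proteins, which are known for protecting transcripts with AU-rich elements from decay.

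Stretches of member 3′-UTRs with the pentamer ATTTA, the core of the classic AU-rich element, are shown. They were chosen as the only matches that lay both inside a member peak, as deposited, and inside the 3′-UTR of the canonical transcript. Each is 25 bases of the gene strand, with ATTTA in capitals, from hg38: chr10:86924291-86924315 in BMPR1A, chr2:33398686-33398710 in LTBP1, chr4:145558062-145558086 in SMAD1, and chr1:218441645-218441669 and chr1:218442825-218442849 in TGFB2, all on the + strand.
BMPR1A: gaagaaaataATTTAtatgcatgca
LTBP1: caatgagaggATTTAggatgagccc
SMAD1: ggattcagaaATTTAaacaaaaaaa
TGFB2, first stretch: cactggaagaATTTAttagtgttaa
TGFB2, second stretch: tttagcaaggATTTAgggttctaac
The second TGFB2 stretch lay in both peaks assigned to TGFB2-OT1. The longer element TATTTAT was in 0 of the 4 member peaks annotated to a 3′-UTR, beside 8.22% of such peaks in the list, a share too low for 4 peaks to show a difference.

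Receptors and intracellular members were listed more often than secreted ones. A peak was found for 17 of the 47 protein-coding genes of the pathway, or 36.2% (Wilson 95% interval 24.0 to 50.5), beside 15.4% of all 20056 protein-coding genes. Counting only peaks that reached the median score of the list, 34.0, it was 8 of 47, or 17.0% (8.89 to 30.1), beside 7.78% of all. Receptors and co-receptors had 7 of 13 genes listed, or 53.8% (29.1 to 76.8), and SMADs 4 of 8, or 50.0% (21.5 to 78.5). Ubiquitin ligases and corepressors had 3 of 4 listed, whereas ligands and LTBP proteins had 2 of 17, or 11.8% (3.29 to 34.3). The intervals of the secreted and the receptor genes overlapped, and no test was made between them. An unlisted gene is one for which this list held no peak, which does not measure its expression or its binding.

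The score is HOMER's own value for a peak, and every peak was 347 bp long. Scores lay on steps of 0.245, and if 1 step is 1 sequenced tag, which the authors do not state, an exact Poisson 95% interval can be given for each score. These intervals, like the Wilson intervals, cover counting error only. Over all members the median score was 31.0, with quartiles of 16.8 and 52.1, beside 34.0, with quartiles of 17.6 and 83.4, in the list. Only 1 member peak was among the tenth of the list with the highest scores, at 213.4 or above. The highest score per gene had a median of 31.3 over the 17 protein-coding members and 34.5 over 3084 listed protein-coding genes, and both had a median of 3 peaks per gene. Of the 82 member peaks, 39 were at or above the list median. Members thus ran close to the list in the lower and middle range and were fewer at its top. The highest member scores were at the TGFB2 locus, followed by BMPR2 and SMAD2.

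**Figure D1:**
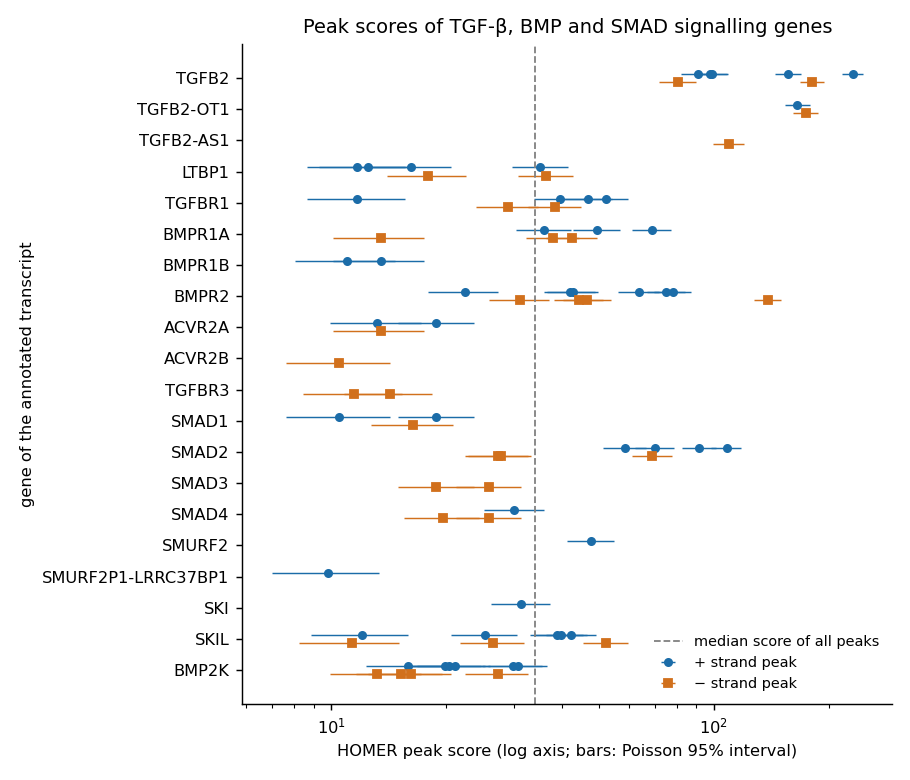
Score of each of the 82 member peaks (log axis) by gene, in the order ligand, latent complex, receptors, SMADs, SMURF, corepressors and BMP2K. Circles are + strand peaks, squares − strand peaks, bars the Poisson 95% interval and the dashed line the list median of 34.0. All 10 peaks of the TGFB2 locus lay at 80.5 or above, while those of ACVR2A, ACVR2B, BMPR1B, TGFBR3 and SMAD1 lay below 20.

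TGFB2, which encodes a TGF-β ligand, was the only one of 13 ligand genes with a peak and had the highest scores among the genes of the symbol pattern. Its 7 peaks, in genomic order, scored 156.1, 97.9, 98.9, 80.5, 91.0, 180.6 and 230.3. The highest (216 to 245) lay at chr1:218441385-218441731 on the + strand, in the 3′-UTR of the canonical transcript, and was annotated to exon 7 of a non-coding TGFB2 transcript. It placed TGFB2 at rank 317 of 3313 genes. Among these 7, the 2 peaks in the last exon and the 1 in the first stood above the 4 between them. Their intervals did not overlap with those of the 4. This did not hold for a further peak in exon 1, assigned to TGFB2-AS1 and given below.

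The 3 peaks assigned to non-coding genes at this locus also lay on exons of TGFB2. TGFB2-OT1, which is transcribed from within the TGFB2 3′-UTR, had 2 peaks. That at chr1:218442538-218442884 on the − strand scored 173.5 (161 to 187) and was annotated as a promoter, and that at chr1:218442712-218443058 on the + strand scored 164.9 (153 to 178). Both lay wholly in exon 7 of TGFB2. TGFB2-AS1, an antisense transcript at the start of TGFB2, had 1 peak at chr1:218346150-218346496 on the − strand with a score of 109.6 (99.7 to 120), annotated as a promoter. This peak lay outside the canonical TGFB2-AS1 transcript and wholly in exon 1 of TGFB2. The library kit does not mark strand, so TGFB2 and these non-coding genes cannot be told apart here. The 10 peaks together made up 1383 of the summed member score of 3834, or 36.1%, and without them the member median was 27.4.

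The other ligand genes, TGFB1, TGFB3, BMP2, BMP3, BMP4, BMP5, BMP6, BMP7, BMP8A, BMP8B, BMP10 and BMP15, were unlisted. Of the genes of the latent complex, LTBP1 was listed and LTBP2, LTBP3 and LTBP4 were not. LTBP1, which anchors latent TGF-β to matrix fibres, had 6 peaks between 11.7 and 36.5, at rank 1570. Its highest peak, at chr2:33398308-33398654 on the − strand (30.8 to 42.8), was annotated to the last coding exon. The neighbouring + strand peak at chr2:33398530-33398876 was annotated to the 3′-UTR and scored 35.2 (29.7 to 41.5). These last-exon peaks stood above the other 4, which scored 17.9 at most.

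Among type II receptors, which bind ligand and activate the type I partner, BMPR2 held 10 peaks, more than any member but BMP2K, which also had 10. In the order of its exons the scores were 46.7 and 74.9 at exon 1, 44.3 and 42.1 at exon 2, 31.1 at exon 3, 22.3 at exon 5, 42.8 at exon 7, 63.6 at exon 8, 78.1 at exon 11 and 138.3 at exon 12. The highest (127 to 150) lay at chr2:202555183-202555529 on the − strand in exon 12, which at 1280 bp was the longest coding exon of the gene that held a peak, and BMPR2 ranked 532. BMPR2 had 0 peaks in its 3′-UTR, which in the canonical transcript was 7803 bp long and held 34 copies of ATTTA. It shared this with ACVR2A and ACVR2B. Only 6 of the 17 listed protein-coding genes had a peak at their last exon, counted as given below for exons. The activin receptors scored lower. ACVR2A had 3 peaks at 18.8, 13.5 and 13.2, whose intervals overlapped, and ACVR2B had 1 at 10.5 (7.62 to 14.2). TGFBR2, the type II receptor for TGF-β itself, was unlisted. Its canonical 3′-UTR held 1 ATTTA in 2543 bp, and that of ACVR2A 20 in 3548 bp. Unlisted genes of the pathway could also hold many, as did ACVR1C with 27 in 7151 bp and BMP2 with 13 in 1157 bp.

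Type I receptors phosphorylate SMADs. BMPR1A had 6 peaks at 13.5, 42.6, 37.9, 36.0, 49.4 and 68.8 in genomic order. The highest (61.0 to 77.3) was the 3′-UTR peak at chr10:86924041-86924387 on the + strand, the one with the ATTTA stretch shown above, and the gene ranked 976. TGFBR1 had 6 peaks, from 11.7 at exon 1 to 52.1 (45.4 to 59.6) at exon 2, where the peak lay at chr9:99128976-99129322 on the + strand and was annotated to intron 2. All of its peaks were at exons 1, 2, 3 and 6 of 9. BMPR1B had 2 peaks at 13.5 (10.1 to 17.5) and 11.0, at exons 10 and 11, and its interval lay below that of every BMPR1A peak but the lowest. ACVR1, ACVR1B, ACVR1C and ACVRL1 were unlisted. TGFBR3, or betaglycan, which presents ligand to the other receptors, had 2 peaks at 14.2 (10.8 to 18.3) and 11.5, and its relative TGFBR3L had 0. How reads shared between these related kinases were assigned is not stated.

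Of the SMADs, SMAD2 had the highest scores. This transducer of TGF-β and activin signals had 7 peaks, at 107.9, 69.0, 70.2, 27.2, 58.5, 91.5 and 27.7 in genomic order, which for this gene runs from the last exon to the first. The highest (98.1 to 118) lay at chr18:47841688-47842034 on the + strand, against the strand of the gene, and was annotated to exon 11 of 11. SMAD2 ranked 656. SMAD3, which carries the same signals, had 2 peaks at 25.9 (21.2 to 31.4) and 18.8, so its highest interval lay below those of 5 of the 7 SMAD2 peaks. SMAD1, a BMP transducer, had 3 peaks at 18.8 (14.9 to 23.6), 16.4 and 10.5. The 16.4 peak (12.7 to 20.8), at chr4:145557846-145558192 on the − strand, was in the 3′-UTR and held the SMAD1 stretch shown above. SMAD4, the partner common to both branches, had 3 peaks at 30.1 (25.0 to 35.9), 25.9 and 19.6. SMAD5 and SMAD9, the other BMP transducers, and SMAD6 and SMAD7, the inhibitory SMADs, were unlisted.

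Outside the SMADs, 3 of the 4 negative regulators were listed. SKIL, a nuclear corepressor of SMADs, had 8 peaks, at 42.3, 11.3, 12.0, 26.4, 25.2, 38.9, 39.9 and 52.1 in genomic order. The highest (45.4 to 59.6) lay at chr3:170392076-170392422 on the − strand at the edge of the last exon and was annotated to intron 6. Its relative SKI had 1 peak at 31.3 (26.1 to 37.2). SMURF2, a ubiquitin ligase for receptors and SMADs, had 1 peak at chr17:64586114-64586460 on the + strand, annotated to intron 5, with a score of 47.7 (41.3 to 54.9), and SMURF1 was unlisted. SMURF2P1-LRRC37BP1, a transcribed pseudogene named in part for SMURF2, had 1 peak at 9.79 (6.99 to 13.3), the lowest score of all members. It was annotated to intron 8 of 8, and whether its reads could be shared with SMURF2 was not examined.

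BMP2K, a kinase named for its induction by BMP2 and not a part of the SMAD cascade, had 10 peaks between 13.2 and 30.8 (25.7 to 36.7). One of them, at chr4:78878892-78879238 on the + strand with a score of 29.9 (24.8 to 35.6), was annotated to the 3′-UTR of a shorter transcript and lay in intron 14 of the canonical one. It held 0 copies of ATTTA. TGFBI, a matrix protein induced by TGF-β, TGFBRAP1, which associates with TGF-β receptors, TGFB1I1, a focal adhesion adaptor, and BMP1, a secreted protease and not a BMP ligand, were unlisted.

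Most member peaks were annotated to introns but sat beside exons. By the deposited annotation of the peak centre, 59 of 82 were in introns, or 72.0% (61.4 to 80.5), beside 61.9% of all peaks. Exons held 12, or 14.6% (8.57 to 23.9), beside 12.6%, and 3′-UTRs 4, or 4.88% (1.91 to 11.9), beside 14.6%. Peaks at 230.3, 173.5 and 164.9 in the TGFB2 3′-UTR were annotated as non-coding or promoter and are not among these 4. Those at 173.5 and 164.9, assigned to TGFB2-OT1, are not among the 78 below either. On the canonical transcripts of GENCODE, 60 of the 78 peaks in protein-coding members were intronic, at a median of 89.5 bp from the nearest exon and at most 243 bp. Moving each point 173 bp back against the strand of its peak, which is the distance from centre to edge, put 51 of these 60, or 85.0% (73.9 to 91.9), in an exon, beside 73.3% of 8735 intronic peaks in the list. At that point 67.9% of member peaks lay in coding exons, beside 54.5% of all, 8.97% in 3′-UTRs, beside 19.1%, and 15.4% in introns, beside 20.1%. The way tags were moved or extended by the authors is not stated, and its part in these positions was not tested.

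**Figure D2:**
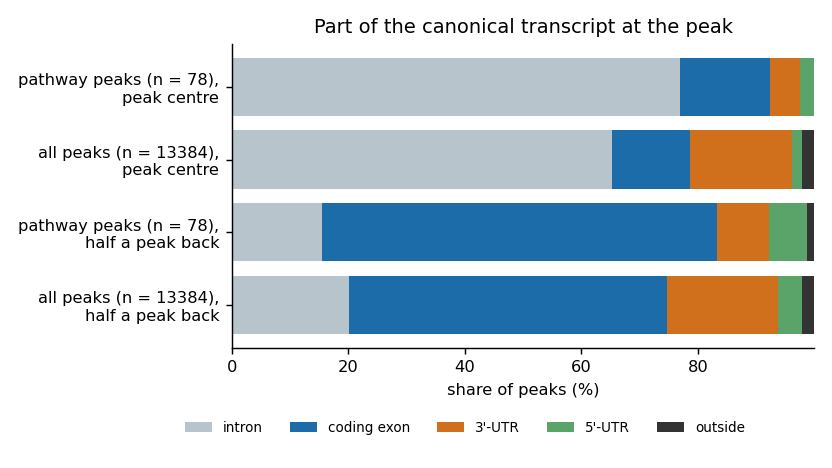
Share of peaks (%) in each part of the canonical transcript, for 78 pathway peaks and 13384 peaks of all protein-coding genes, at the peak centre and 173 bp back, that is, against the peak's own strand. The intronic share of pathway peaks was 76.9% at the centre and 15.4% at the point further back.

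Counted at the point 173 bp back, 53 of the 216 exons of the 17 genes held a peak, or 24.5%. Among internal exons, 41 of 182 did, with a median length of 173 bp, beside 135 bp for those that did not. Of first exons 6 of 17 did, with medians of 762 and 372 bp. Last exons went the other way, with 6 of 17 and medians of 3896 bp with a peak and 4757 bp without. The shortest exon with a peak, exon 9 of BMP2K, had 80 bp. SKIL had peaks at 6 of 7 exons and BMPR2 at 8 of 13. LTBP1, with 34 exons, had peaks at 5, and SMURF2 at 1 of 19. SMAD3 and ACVR2B held no such exon, since their peaks lay in introns at that point. Of the 78 peaks in protein-coding members, 5 lay within 1000 bp of the start of the canonical transcript.

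**Figure D3:**
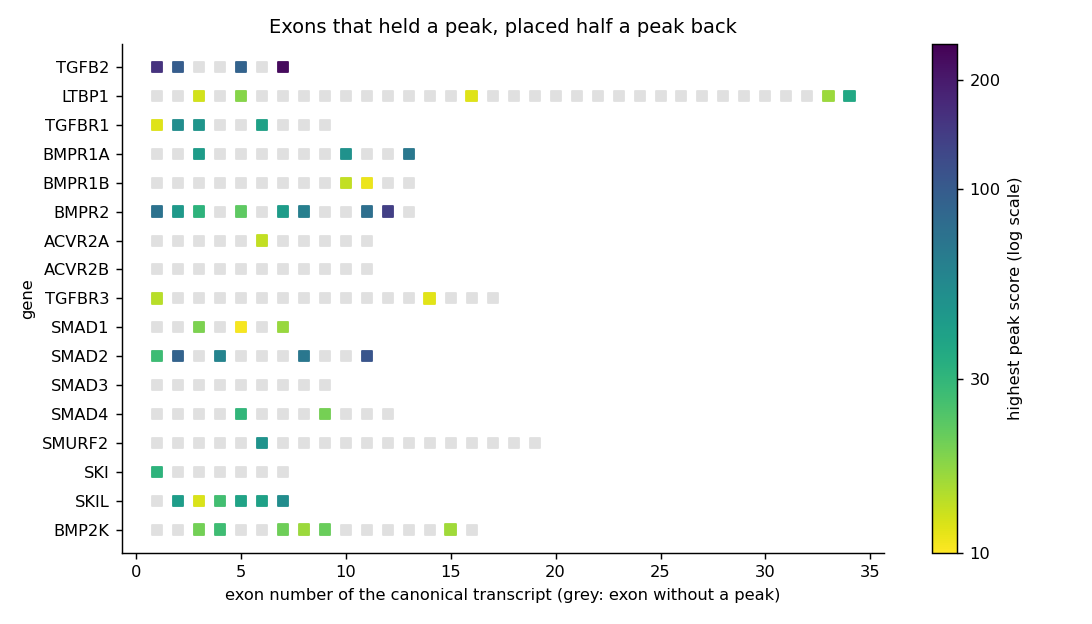
Exons of the canonical transcript of each of the 17 protein-coding genes (squares, by exon number), coloured by the highest score of a peak placed there at the point 173 bp back, on a log scale. Grey exons held no peak. SKIL had peaks at 6 of its 7 exons, while LTBP1 had peaks at 5 of 34.

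At 13 exons a + strand peak and a − strand peak both pointed back to the same exon, with centres 341 bp apart at the median. The exon of TGFB2-OT1 was counted apart, though both of its peaks lay in exon 7 of TGFB2. The scores of the members of such pairs were close. In 10 of 13 the Poisson intervals overlapped, or 76.9%, beside 62.4% of 1901 such pairs in the list. The median ratio of the higher to the lower score was 1.06, beside 1.20. The 13 pairs are too few to show a difference from the list. Intervals are also wider relative to the score where scores are low, and member scores ran lower than those of the list. At SMAD2 exon 8 the scores were 69.0 and 70.2. At BMPR2 exon 2 they were 44.3 and 42.1. The intervals did not overlap at TGFB2 exon 7, with 180.6 on the − and 230.3 on the + strand, at BMPR2 exon 1, with 46.7 and 74.9 and centres 963 bp apart, and at TGFBR1 exon 2, with 28.9 and 52.1, which was the largest ratio at 1.80. Of 81 member peaks with a stranded gene, 48 were on the strand of the gene, or 59.3% (48.4 to 69.3), beside 53.2% in the list.

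**Figure D4:**
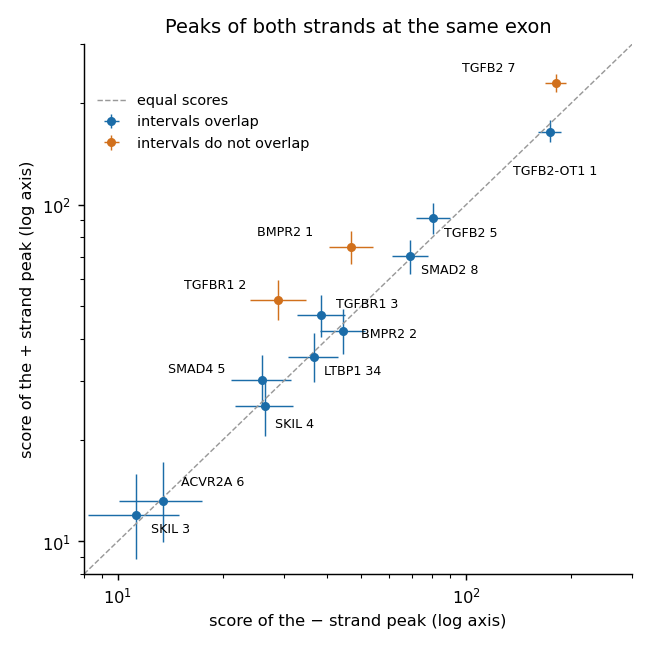
Score of the + strand peak against that of the − strand peak (both log axes) at the 13 member exons with a peak of each strand. TGFB2-OT1 is counted apart from TGFB2 exon 7, in which its peaks lay. Labels give gene and exon number, bars are Poisson 95% intervals and the dashed line marks equal scores. Intervals did not overlap at TGFB2 exon 7, BMPR2 exon 1 and TGFBR1 exon 2, where the + strand peak was higher.

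ATTTA on the gene strand was found in 3 of the 4 member peaks annotated to 3′-UTRs (BMPR1A, LTBP1 and SMAD1), or 75.0% (30.1 to 95.4), beside 52.7% of 2055 such peaks in the list. Over 10 member peaks in a canonical 3′-UTR at the centre or at the point 173 bp back, a set chosen after the data were seen, it was 9, or 90.0% (59.6 to 98.2), beside 52.4% of 2678. The exception was the highest SMAD2 peak. In 3 of these 9 peaks, of LTBP1, SKIL and TGFB2, the match lay outside the 3′-UTR. With windows moved 173 bp back, ATTTA was in 2 of the 4 annotated peaks, or 50.0% (15.0 to 85.0), beside 51.1%. The BMPR1A peak and the highest TGFB2 peak then held no ATTTA in the canonical 3′-UTR, while the SKIL peak and the − strand LTBP1 peak did. The 10 peaks were not independent. They included the 2 TGFB2-OT1 peaks, counted by their place in the TGFB2 3′-UTR, which held the same stretch. Those of LTBP1 overlapped each other, as did those of TGFB2. The interval treats all 10 as separate and is thus too narrow, so no difference from the list is drawn from it. TTTTT was in 2 of the 4 annotated peaks, beside 78.5%. Of the other peaks in the larger set, those of SKIL, TGFB2 and TGFB2-OT1 held it. The SMAD2 peak and the − strand LTBP1 peak did not. Whole 3′-UTRs held the pentamer in all 17 listed genes and in 23 of the 30 unlisted genes of the pathway, or 76.7%, beside 93.3% of listed and 62.0% of unlisted protein-coding genes.

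Listed members had longer transcripts than unlisted ones. Their summed exon length had a median of 6464 bp, with a range of 3002 to 34626, beside 4099 bp, from 1262 to 8853, in unlisted genes of the pathway. Their 3′-UTRs had a median of 4250 bp beside 1700 bp, 64.7% A and T beside 53.7%, and 3.19 copies of ATTTA per kb beside 1.95. The copies per kb overlapped, with 1.51 to 5.64 in listed and 0 to 11.2 in unlisted genes, so the highest densities were in unlisted genes. The same order of medians held over all protein-coding genes, with exon lengths of 4767 and 2626 bp, 3′-UTRs of 2498 and 839 bp and 2.68 and 1.24 copies of ATTTA per kb. Of the 25 pathway genes with at least 5000 bp of exons, 16 were listed, or 64.0% (44.5 to 79.8), beside 32.0% of 4457 genes of that length. Of the 22 shorter ones only SMAD1 was, or 4.55% (0.807 to 21.8), beside 11.2% of 14679. These shares depend on the cut of 5000 bp, which lay between the listed ACVR2A at 5214 bp and the unlisted LTBP4 at 4961 bp and LTBP3 at 4833 bp. The 9 long genes without a peak were ACVR1C, BMP3, BMP8A, BMP10, LTBP2, SMAD5, SMAD9, SMURF1 and TGFBRAP1. Length also differed between the roles, with a median of 4826 bp for ligands and LTBP proteins, 5580 bp for receptors and co-receptors, 6011 bp for SMADs and 6162 bp for ubiquitin ligases and corepressors. Among genes with at least 5000 bp of exons, 2 of 6 ligands and LTBP proteins were listed, 7 of 8 receptors and co-receptors, 3 of 5 SMADs and 3 of 4 ubiquitin ligases and corepressors.

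**Figure D5:**
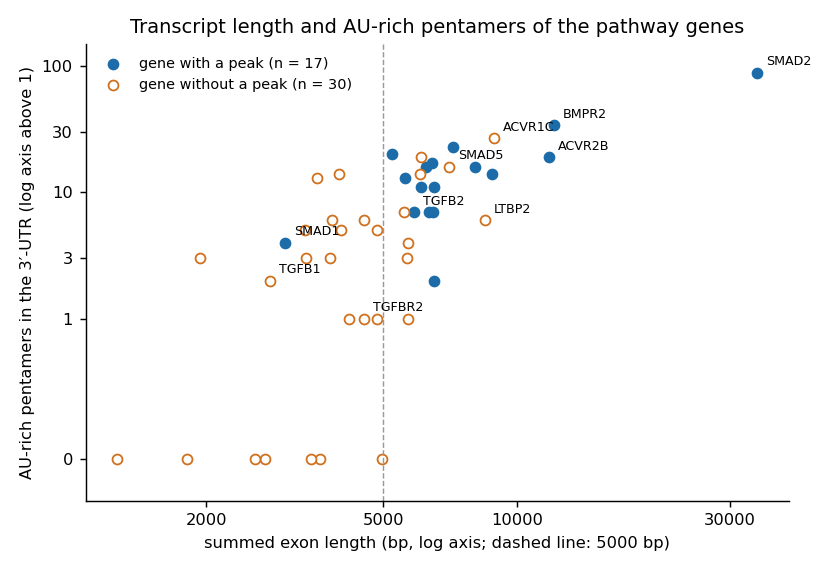
Summed exon length in bp (log axis) against copies of the AU-rich pentamer in the canonical 3′-UTR (log axis above 1) for the 47 protein-coding genes of the pathway, 17 with a peak (filled) and 30 without (open). The dashed line marks 5000 bp, below which SMAD1 was the only gene with a peak.

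Other genes of the pathway were named by textbook role outside the symbol pattern. Of 89 such genes, 25 were listed, or 28.1% (19.8 to 38.2), beside 15.4% of all protein-coding genes, and 64 were not. Nuclear cofactors had 8 of 12 listed, or 66.7% (39.1 to 86.2), and cytoplasmic regulators 9 of 19, or 47.4% (27.3 to 68.3). The intervals of the next 4 classes held the share of all genes, with 3 of 9 for proteins that activate latent ligand (12.1 to 64.6), 2 of 8 for other receptors and co-receptors (7.15 to 59.1), 2 of 12 for extracellular antagonists (4.70 to 44.8) and 1 of 9, ID4, for target genes (1.99 to 43.5). Other ligands had 0 of 20, with an upper bound of 16.1%. The gene lists were chosen with earlier results of these data known, and transcript length was not taken into account. No test was made between the classes. The 3 highest were FKBP1A, which encodes a protein that binds type I receptors and keeps them inactive, at 1417, TWSG1, a secreted BMP modulator, at 442.2, and THBS1, an activator of latent TGF-β, at 385.2. All 3 stood above the highest TGFB2 peak.

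The label of the cell line could not be checked against its markers, since presence in the list does not measure expression. Of the mesenchymal markers AXL had 21 peaks, CD44 had 13 and VIM had 0, and the luminal markers ESR1, PGR, ERBB2, EPCAM and CDH1 had 0, which at 15.4% of all genes listed says nothing of the cell type.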

How the data were processed

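RNA from MDA-MB-231 cells was sequenced in 2 HuR RIP and 2 IgG RIP samples, grouped by antibody as the labels give it. Libraries were made with a TruSeq kit without poly(A) selection, and the methods call the replicates biological. Per the labels and methods, the authors aligned reads with STAR to hg38, called peaks with HOMER and kept peaks with altered transcript abundance. Versions, settings, the threshold of that selection and any pooling are not given in the sources used here.

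The deposited list gives a peak score, HOMER's value of unstated scale, for each peak. A fraction, the focus ratio, was deposited beside it, with a median of 0.520 over members and 0.542 over the list. The other deposited value was the distance in bp to the nearest start site. No column held values of single samples, so no test between groups was made and the depth of the libraries is unknown. Of 10654 scores between 10 and 100, 100.0% lay within 0.05 of a multiple of 0.245, beside 40.9% by chance. The lowest score, 8.32, would then be 34 tags.

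Host genes were those of the annotated RefSeq transcript, matched by accession to RefSeq for 13838 of 13929 peaks with one. For 38 of 82 member peaks the deposited gene column named another gene, the one with the nearest start site. Exons and UTRs were those of canonical GENCODE 44 transcripts, the same build as the list, with 1-based coordinates. Sequences were read from the hg38 reference, and motifs were counted on the gene strand. Every listed protein-coding member was named, with peaks in full for the highest peak of the 10 genes with the highest scores and for 3′-UTR peaks. The members, gene lists and rules were chosen with earlier results of these data known. Python 3.11.15, numpy 2.4.6, scipy 1.17.1, pandas 2.3.3, pysam 0.24.0 and matplotlib 3.10.9 were used. Step, intervals and placement were tested on simulated data. Alternatives used a score minimum, the gene column, merged peaks, other positions and other motifs.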

Additional observations from a re-analysis of the deposited data

How the results depend on the processing

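Of 30 alternatives to 9 results, 22 stayed within the counting error or within 1.5 times of the reported count and 8 did not. With peaks at or above the median score only, member peaks fell from 82 to 39, member genes from 20 to 10 and the share of pathway genes with a peak from 36.2% to 17.0%, by construction, since fewer peaks were counted. At the point 173 bp back, the share of member peaks in coding exons was 67.9% instead of 14.6% and that in introns 15.4% instead of 72.0%. On 3′-UTR peaks only, 3 of 4, or 75.0% (30.1 to 95.4), instead of 59.3% were on the strand of the gene. The share was 59.0% for 3′-UTR peaks of the list. The interval of the 4 peaks holds 59.3%, so they cannot show a change. The share of these 4 peaks with ATTTA was 75.0%, with TATTTAT 0%, beside 8.22% in the list, and with ATTTA on either strand 100%. The last is 4 of 4 instead of 3 of 4, too few peaks to show a change. The cause of the change in position was not tested. By the gene column, 57 peaks were members, 50 of them shared with the 82, and 31.9% of pathway genes were listed. Merged over both strands, the 82 peaks were 71 loci.

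No paired analysis was possible because each peak came with 1 value for the whole series and none per sample. Leaving out a replicate could not be run either. The 2 alternatives added after the data were seen were the median score without the TGFB2 locus, 27.4, and the larger set of 3′-UTR peaks.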
